A study of Rattus norvegicus with 26 samples.

Results

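Mitochondrial complex I is represented here by 37 genes, chosen as all genes whose symbol begins with Ndufa, Ndufb, Ndufc, Ndufs or Ndufv and whose probe set carries that symbol alone. They come from 41 probe sets, the brightest of each gene being used, and are 37 of the 14506 genes with a symbol of their own on the array. All 37 lay above the intensity filter that left 8485 genes to be tested. RNA was taken from the hippocampus of male F344 rats, a strain used in the study of aging, at 18 months of age. The rats had eaten for several months a purified diet that differed in vitamin D3: 8 rats received the low diet with 100 IU per kg, 9 the control diet with 1000 IU per kg and 9 the high diet with 10000 IU per kg. Each rat gave 1 array. Rats were housed in pairs. The array descriptions give 9 cage numbers, 5 of them in more than 1 diet, and a number was taken as a separate cage in each diet, since it never marks more than 2 rats within a diet. This gives 14 cages, 12 of them with both rats measured. Whole hippocampus holds many cell types, so fewer cells of a type and less RNA per cell cannot be told apart in these values.

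Complex I is the entry point of the respiratory chain. It takes electrons from NADH, hands them through a row of iron-sulfur clusters to ubiquinone and uses the energy to pump protons out of the matrix. The electron input module and the quinone module form the arm that reaches into the matrix, and the proximal and distal parts of the membrane arm carry the pumps. A core of subunits conserved from bacteria does the chemistry, the many accessory subunits surround it, and assembly factors help to build the complex without staying in it. Neurons depend heavily on this chain for ATP. The 37 genes comprise 8 of the electron input module, 6 of the quinone module, 7 of the proximal and 11 of the distal membrane arm, and 3 assembly factors. Ndufa4, named as a subunit of complex I but now assigned to cytochrome oxidase, and a probe set under the pseudogene symbol Ndufs6-ps1 make up the rest. In that probe set, RNA of Ndufs6 and of the pseudogene cannot be told apart. Of the core subunits made from nuclear genes, Ndufs1, Ndufs3, Ndufs7, Ndufs8, Ndufv1 and Ndufv2 were measured. Of the 7 subunits encoded in mitochondrial DNA, 0 were found by symbol among the genes with a symbol of their own, so they were not analysed.

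The 4 genes with the smallest unadjusted p between the high and the low diet were Ndufa7, Ndufs1, Ndufa1 and Ndufa3. None of them passed the adjusted test, and their promoters are shown as examples. The sequences are from RefSeq (GRCr8), run from 250 bases before the annotated start to 30 after it, and are written on the gene's own strand. Ndufa7 lies at chr7:15311196-15311475 on the plus strand. Ndufs1 lies at chr9:72073576-72073855, Ndufa1 at chrX:121293526-121293805 and Ndufa3 at chr1:74515529-74515808, all on the minus strand. Capitals mark matches on either strand to the ETS motif CCGGAAG, bound by GABPA, the SP1 motif GGGCGG and the YY1 motif AAGATGG.
Ndufa7: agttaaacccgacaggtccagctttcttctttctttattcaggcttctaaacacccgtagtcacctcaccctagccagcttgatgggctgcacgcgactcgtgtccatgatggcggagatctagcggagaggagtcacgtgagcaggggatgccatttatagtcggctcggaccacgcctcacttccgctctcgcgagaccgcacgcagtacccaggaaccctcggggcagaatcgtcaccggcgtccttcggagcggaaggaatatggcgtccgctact
Ndufs1: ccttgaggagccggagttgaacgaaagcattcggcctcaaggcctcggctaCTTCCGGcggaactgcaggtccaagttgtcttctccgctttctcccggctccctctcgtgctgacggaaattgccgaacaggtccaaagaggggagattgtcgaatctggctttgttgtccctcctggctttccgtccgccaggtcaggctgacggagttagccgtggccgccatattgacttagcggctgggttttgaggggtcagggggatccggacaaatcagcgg
Ndufa1: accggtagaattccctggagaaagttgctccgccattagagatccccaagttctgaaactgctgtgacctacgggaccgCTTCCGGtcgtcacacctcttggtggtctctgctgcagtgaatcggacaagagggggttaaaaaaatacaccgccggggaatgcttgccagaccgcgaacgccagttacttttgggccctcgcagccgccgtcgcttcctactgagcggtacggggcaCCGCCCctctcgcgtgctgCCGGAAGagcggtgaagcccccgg
Ndufa3: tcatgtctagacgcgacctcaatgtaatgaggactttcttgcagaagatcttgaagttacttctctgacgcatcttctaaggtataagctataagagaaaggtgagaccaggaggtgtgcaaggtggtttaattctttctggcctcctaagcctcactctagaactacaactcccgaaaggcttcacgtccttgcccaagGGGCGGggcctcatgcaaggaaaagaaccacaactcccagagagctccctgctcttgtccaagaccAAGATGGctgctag
Ndufa1 held 2 ETS matches and 1 SP1 match, Ndufs1 held 1 ETS match, and Ndufa3 held 1 SP1 and 1 YY1 match, while Ndufa7 held none of these letters.

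A window from 250 bases before to 50 after the start was found in RefSeq for 34 of the 37 genes. The ETS motif was present in 7 of them (20.6%), against 8.75% of all 33469 promoter windows. YY1 letters were likewise present in 7 (20.6%), against 7.01% of all windows. The SP1 motif stood in 15 (44.1%), against 33.1%. The palindromic core of the NRF1 site, searched as GCGCATGCG, was found in Ndufa11 and Ndufaf4 (5.88%), against 1.52% of all, and in both it overlapped itself on the opposite strand. NRF1 and GABPA are known as nuclear regulators of respiratory chain genes. The ERR motif TCAAGGTCA was in 0 of 34 windows and 0.433% of all, and the vitamin D receptor motif GGTTCA in 0 of 34 and 11.7% of all. These windows were also richer in G and C, with a median of 56.8%, against 51.7% over all promoters. A match describes letters in a window, and an absent one says nothing about the factor.

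The array values are log2 probe set values deposited by the authors. Array medians lay between 6.92 and 6.96, and each array correlated with the remaining ones at a mean r between 0.997 and 0.998. A probe set's level depends on its probes, so levels are compared between rats and not between genes. The brightest of the 37 probe sets were those of Ndufc2, a proximal membrane arm subunit, at 13.24 over all 26 rats, Ndufs4, an electron input subunit whose loss models Leigh syndrome in mice, at 12.99, and the distal arm subunit Ndufb6 at 12.80. The dimmest were Ndufa10 at 7.56, Ndufaf1 at 7.93 and Ndufaf3 at 7.99. Spread within a diet was smallest for Ndufc2, with a pooled SD of 0.033 log2, and largest for Ndufa10 with 0.24, around a median of 0.074. Vdr, the vitamin D receptor, and Cyp24a1, Cyp27b1 and Cyp27a1, which break down or activate the vitamin, lay below the intensity filter.

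Between the high and the low diet, 33 of the 37 genes had a higher mean on high, against 55.2% of all tested genes, but no gene passed the test. The 33 became 32 with quantile normalization and 34 when arrays were centred on their medians. The median difference of the 37 was +0.035 log2, against +0.0053 over all genes. After centring these medians were +0.042 and +0.012. With limma's moderated test and Benjamini-Hochberg adjustment, 0 of the 8485 genes (0%) were called at an adjusted p under 0.17, and the smallest adjusted p of a complex I gene was 0.679. Without moderation the count was also 0. At an unadjusted p under 0.05, 4 of the 37 stood higher on high and 0 lower, against 613 of all genes (7.22%), with 4.5% higher and 2.72% lower. Without low rat 1 the 4 became 2, and without low rat 2 they became 1. With cage as a random block they became 3. For 35 of the 37 genes the 95% interval of the difference stayed within 1.2-fold in either direction. For 25 it stayed within 1.1-fold.

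Ndufa7, an accessory subunit of the electron input module, had the smallest unadjusted p in this comparison. Its lowest, median and highest values were 9.32, 9.52 and 9.70 in low rats, 9.38, 9.56 and 9.67 in control rats, and 9.53, 9.66 and 9.73 in high rats. The groups overlapped: 8 of 9 high rats lay above the low mean, but only 1 above every low rat. High minus low was +0.11 log2 (SE 0.044; 95% interval 0.022 to 0.20), or 1.08-fold, with an unadjusted p of 0.017. With cage as a random block it was 0.021.

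Ndufs1 is the largest core subunit and carries iron-sulfur clusters at the entry of the electron path. It had 10.73, 10.79 and 10.87 as lowest, median and highest in low rats, 10.75, 10.81 and 10.89 in control rats, and 10.77, 10.86 and 10.90 in high rats. Again 8 of 9 high rats lay above the low mean, and 3 lay above every low rat. The difference was +0.060 (SE 0.024), with an unadjusted p of 0.019. Over all alternatives tried, that p lay between 0.0051 and 0.048 and the difference between +0.051 and +0.071.

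Ndufa1 is a short proximal arm subunit, encoded on the X chromosome and needed for assembly. Low rats had 8.44, 8.51 and 8.63 as lowest, median and highest, control rats 8.29, 8.49 and 8.70, and high rats 8.50, 8.69 and 8.77. Of the high rats, 5 lay above every low rat, but only 4 lay above every control rat. The lower 4 high rats overlapped both the low and the control rats. High minus low was +0.11 (SE 0.049; unadjusted p 0.029). Ndufa3, another accessory subunit of the proximal arm, had medians of 11.82, 11.84 and 11.86 on the low, control and high diets. Its highest values were 11.93, 11.94 and 12.06. The high mean rested on 3 of the 9 high rats, which lay above every low rat. Its difference was +0.072 (SE 0.035), with an unadjusted p of 0.049, which was 0.078 with cage as a random block and 0.21 without the 3 arrays of lowest quality weight.

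**Figure D1:**
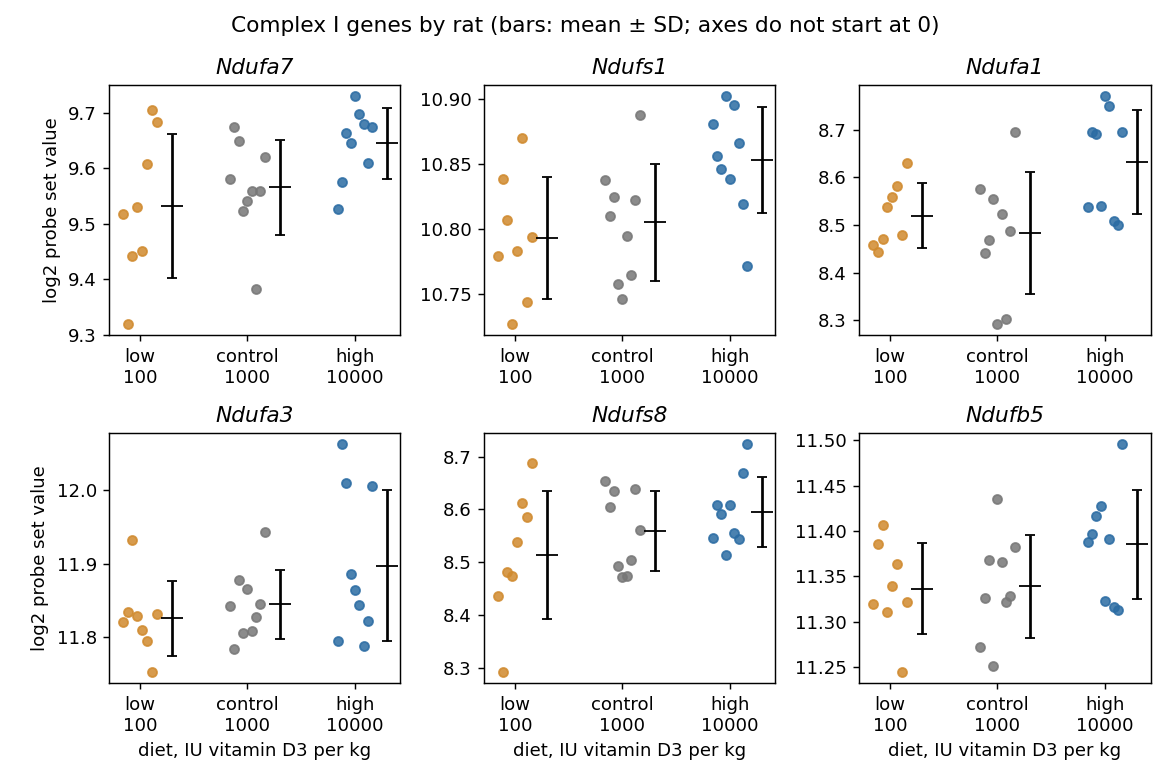
Log2 probe set values of the 6 complex I genes with the smallest unadjusted p between high and low, 1 point per rat, by diet in IU of vitamin D3 per kg; black marks are mean ± SD and the axes do not start at 0. The groups overlap in every panel, and in Ndufa1 5 high rats stand above all low rats.

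In the electron input module, 7 of 8 genes had higher means in high than in low rats (median +0.031). Ndufv1, which binds NADH and the flavin, differed by +0.0070 (SE 0.024) and Ndufv2, the next iron-sulfur subunit, by +0.026 (SE 0.029). Ndufa2, with a difference of +0.13 (SE 0.099), was the most variable gene of the module and ranged between 8.15 and 8.63 in high rats and between 7.90 and 8.56 in low rats. Its difference was the largest of the module, and its SE was exceeded among the 37 genes only by that of Ndufa10. Ndufs4 differed by +0.035 (SE 0.026) and Ndufa12 by +0.021 (SE 0.030). Ndufv3 differed by -0.0020 (SE 0.037) in its brightest probe set and by +0.050 (SE 0.039) in its other one, so its sign depends on the probe set.

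In the quinone module, 5 of 6 were higher, with a median of +0.028. Ndufs8, a core subunit with clusters near the quinone site, had means of 8.60 ± 0.07 in high rats and 8.51 ± 0.12 in low rats (SD, n = 9 and 8), and 8 of 9 high rats lay above the low mean. Its difference of +0.082 (SE 0.042) had an unadjusted p of 0.062, and was +0.050 without low rat 2. The neighbouring core subunits Ndufs7 and Ndufs3 differed by +0.0027 (SE 0.034) and +0.018 (SE 0.035). Ndufa9, which binds a nucleotide at the junction of the arms, was above the low mean in 9 of 9 high rats, with +0.038 (SE 0.024). Ndufa6 differed by +0.042 (SE 0.038), while Ndufa5 had a lower mean on high (-0.030, SE 0.035). Over the core subunits of both modules, 6 of 6 had a higher mean in high than in low rats (median +0.022).

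All 7 genes of the proximal membrane arm had higher means in high than in low rats (median +0.063). Beside Ndufa1 and Ndufa3, these were Ndufa11, at +0.063 (SE 0.049), Ndufs5, at +0.057 (SE 0.043), Ndufc2, at +0.034 (SE 0.020), Ndufa8, at +0.013 (SE 0.038), and Ndufa10. Ndufc2 was the gene with the least spread among the 37, and 9 of 9 high rats exceeded the low mean of 13.22. Ndufa10 had the largest difference, +0.15, but an SE of 0.11: high rats lay between 7.40 and 7.81, and low rats between 7.01 and 8.08. The second probe set of Ndufs5 gave the same +0.057.

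In the distal membrane arm, 10 of 11 were higher, with a median of +0.031. The accessory subunits with the largest differences were Ndufb8 (+0.078, SE 0.056), Ndufb7 (+0.075, SE 0.048; +0.050 without low rat 2) and Ndufb2 (+0.059, SE 0.041). Ndufb5 differed by +0.049 (SE 0.028; unadjusted p 0.099). Ndufab1, the mitochondrial acyl carrier protein, had means of 11.26 ± 0.08 in high rats and 11.23 ± 0.04 in low rats (SD, n = 9 and 8). Ndufb9, Ndufb10, Ndufb3 and Ndufb6 lay between +0.029 and +0.038. Ndufb4 differed by +0.011 in its brightest probe set and by -0.0060 in its other one. Ndufb11, the other X-encoded subunit here, had a lower mean on high, with -0.022 (SE 0.029).

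The assembly factors are described apart from the subunits. Ndufaf1, which helps to build the membrane arm, had means of 7.94 ± 0.05 in high rats and 7.89 ± 0.10 in low rats, Ndufaf3 8.01 ± 0.08 and 7.98 ± 0.06, and Ndufaf4 8.51 ± 0.11 and 8.50 ± 0.13 (SD, n = 9 and 8). Ndufaf3 and Ndufaf4 act together on the quinone module. The differences were +0.047 (SE 0.047) for Ndufaf1, +0.036 (SE 0.035) for Ndufaf3 and +0.0057 (SE 0.049) for Ndufaf4, each about as large as its SE or smaller. Of 8 tested assembly factors outside the Ndufaf names, 6 had higher means on high, with a median of +0.022. Tmem186, of the complex that assembles the membrane arm, was lower on high, with means of 7.02 ± 0.11 in high rats and 7.14 ± 0.14 in low rats and a difference of -0.12 (SE 0.051; unadjusted p 0.021), while Ecsit of the same complex differed by +0.071 (SE 0.035). Neither passed the adjusted test. Ndufa4 differed by -0.013 (SE 0.026) and Ndufs6-ps1 by +0.023 (SE 0.038).

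**Figure D2:**
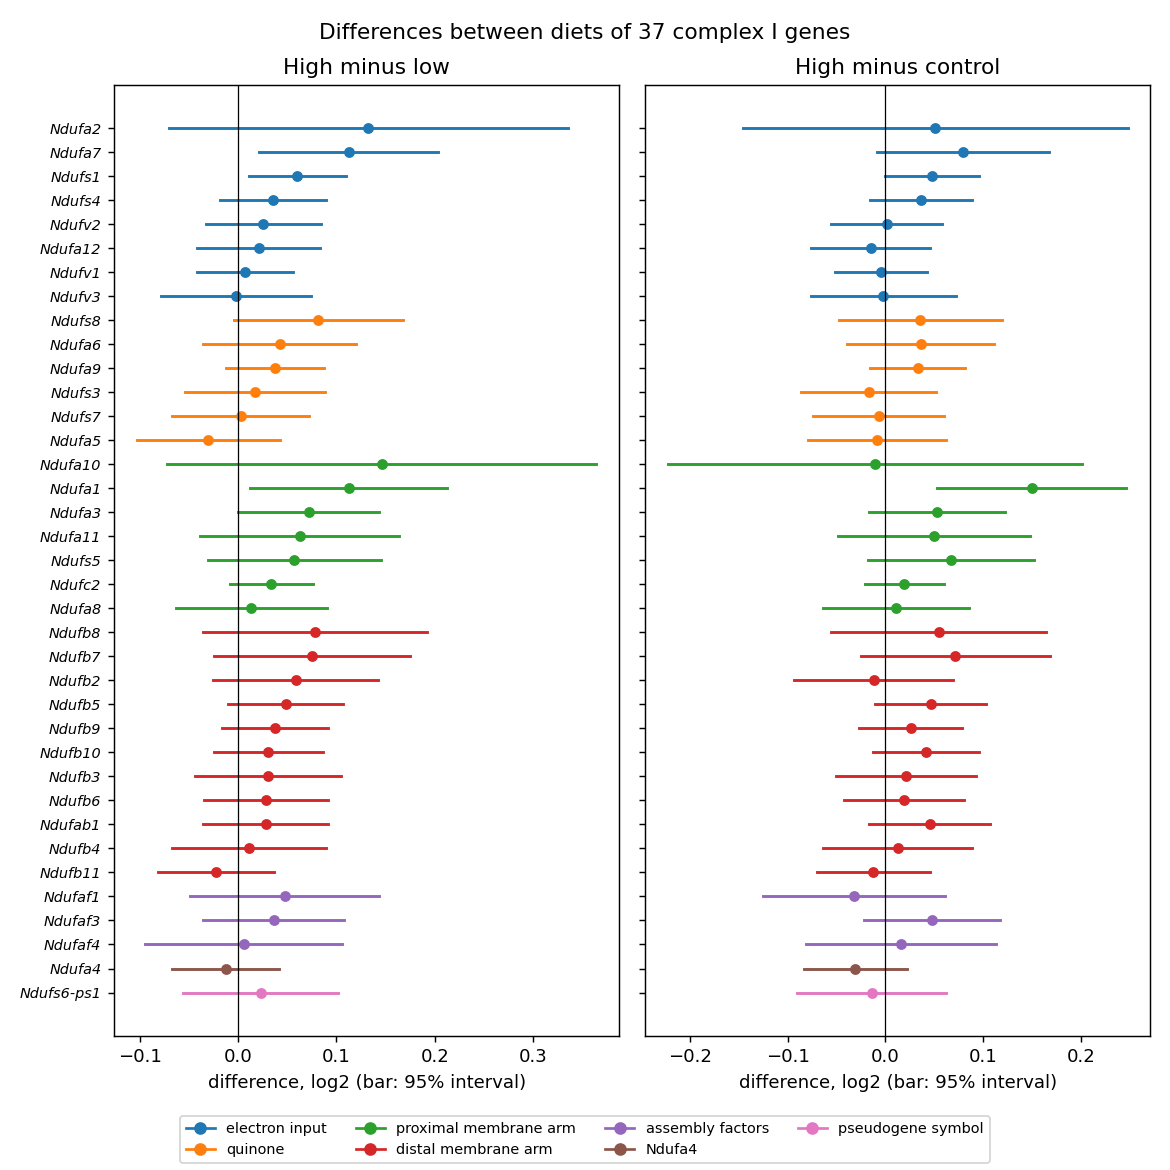
Differences in log2 of high minus low (left) and high minus control (right) for 37 genes, as points with 95% intervals, coloured by module. On the left 33 points lie above 0, and only the intervals of Ndufa7, Ndufs1, Ndufa1 and Ndufa3 do not reach 0; on the right this holds for Ndufa1 and Ndufs1.

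Between the high and the control diet, 25 of the 37 genes had a higher mean on high, against 50.6% of all genes. The 25 stayed 25 after quantile normalization and became 32 after centring. The median was +0.021, against +0.00043 over all genes. Centring moved the median over all genes to +0.013. The test called 0 of 8485 genes (0%), and 0 without moderation; the smallest adjusted p of a complex I gene was 0.946. At an unadjusted p under 0.05 stood Ndufa1 and Ndufs1, 2 of 37 against 393 of all genes (4.63%), and both were higher on high. Of all genes 2.18% were higher and 2.45% lower at that level. Leaving out single rats gave between 1 and 3 such genes. Both comparisons use the same 9 high rats and are not independent.

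Ndufa1 had a mean of 8.63 ± 0.11 in high rats and 8.48 ± 0.13 in control rats (SD, n = 9 each). All 9 high rats lay above the control mean, and 4 lay above every control rat. The difference was +0.15 (SE 0.047), or 1.11-fold, with an unadjusted p of 0.0038, and over all alternatives that p lay between 0.00053 and 0.011. Ndufs1 differed by +0.048 (SE 0.023; unadjusted p 0.0496), and 8 of 9 high rats lay above the control mean. The next in order were Ndufa7 (+0.079), Ndufb5 (+0.046), Ndufs5 (+0.067), Ndufb10 (+0.041), Ndufa3 (+0.053) and Ndufb7 (+0.072), with unadjusted p values between 0.076 and 0.14. Ndufs5 was +0.043 without control rat 13, and Ndufa3 was +0.032 without high rat 19. By module, 6 of 7 genes of the proximal membrane arm, 9 of 11 of the distal arm, 5 of 8 of electron input and 3 of 6 of the quinone module had higher means. Of the core subunits, 3 of 6 were higher, with a median of -0.0016.

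Between the low and the control diet, 26 of the 37 genes had a lower mean on low and 11 a higher one, against 44.1% of all genes higher. The 11 became 10 after quantile normalization and 15 after centring. The median was -0.0098, against -0.0043 over all genes. Centring moved the median over all genes to +0.0014. The test called 0 of 8485 (0%), as did the test without moderation, with a smallest adjusted p of 1.0 among complex I genes. At an unadjusted p under 0.05 stood 0 of the 37, against 193 of all genes (2.27%), with 0.66% higher and 1.61% lower on low. The smallest unadjusted p values belonged to Ndufb2 (-0.070, SE 0.041), Ndufaf1 (-0.079, SE 0.047) and Ndufa10 (-0.16, SE 0.11), followed by Ndufa12, Ndufs8, Ndufs3, Ndufs6-ps1 and Ndufv2, all with lower means on low. All 8 of these differences moved by over 1.5 times when some single rat was left out, without changing sign. Ndufaf1 was -0.039 without control rat 11, its highest control value, and Ndufb2 was -0.046 without low rat 2. Ndufa10 was -0.25 without low rat 6, -0.092 without low rat 2 and -0.084 without control rat 10. Of the core subunits, 6 of 6 had lower means on low, the largest difference being that of Ndufs8 at -0.046. That value was -0.014 without low rat 2 and -0.071 without low rat 8. Without low rat 6, which had the highest complex I values of its group, 7 genes in place of 11 were higher on low.

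Over the 3 diets together, the high mean was the highest of the 3 for 25 of the 37 genes, against 39.7% of all genes, and the low mean was the lowest for 25, against 39.6%. For 17 genes the means stood in the order of the dose, low below control below high, against 24.2% of all genes. A linear trend over log10 dose had a slope above 0 for 33 genes. Of these, 4 had an unadjusted p under 0.05, against 7.59% of all genes. Because the doses are evenly spaced on that scale, the slope follows mainly from the high and low means. The 33 and the 4 thus largely repeat the high minus low comparison, in which 55.2% of all genes had a higher mean on high. The moderated F-test called 0 genes (0%), with 0 without moderation and a smallest adjusted p of 0.998 among the 37. At an unadjusted p under 0.05 it gave Ndufa1 (0.011), Ndufs1 (0.041) and Ndufa7 (0.045), 3 of 37, against 392 of all genes (4.62%). Ndufa3, Ndufb5, Ndufs8, Ndufb2 and Ndufb7 came next, with unadjusted p between 0.12 and 0.22.

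The mean of all 37 genes in each rat was 10.35 ± 0.04 in low rats, 10.37 ± 0.04 in control rats and 10.39 ± 0.03 in high rats (SD, n = 8, 9 and 9). The ranges overlapped, with upper ends close together: 10.30 to 10.42 on low, 10.31 to 10.41 on control and 10.35 to 10.42 on high. Several low and control rats lay below the lowest high rat. The number of genes above their own median over all rats was lowest, median and highest at 10, 13 and 28 in low rats, at 8, 18 and 30 in control rats and at 14, 23 and 31 in high rats. Low rat 6 and control rat 9, with 28 and 30 genes above the median, were thus as high as any high rat but high rat 21. Cage mates differed in their mean by a median of 0.029 over 12 pairs, and rats of the same diet in other cages by 0.035 over 88 pairs.

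**Figure D3:**
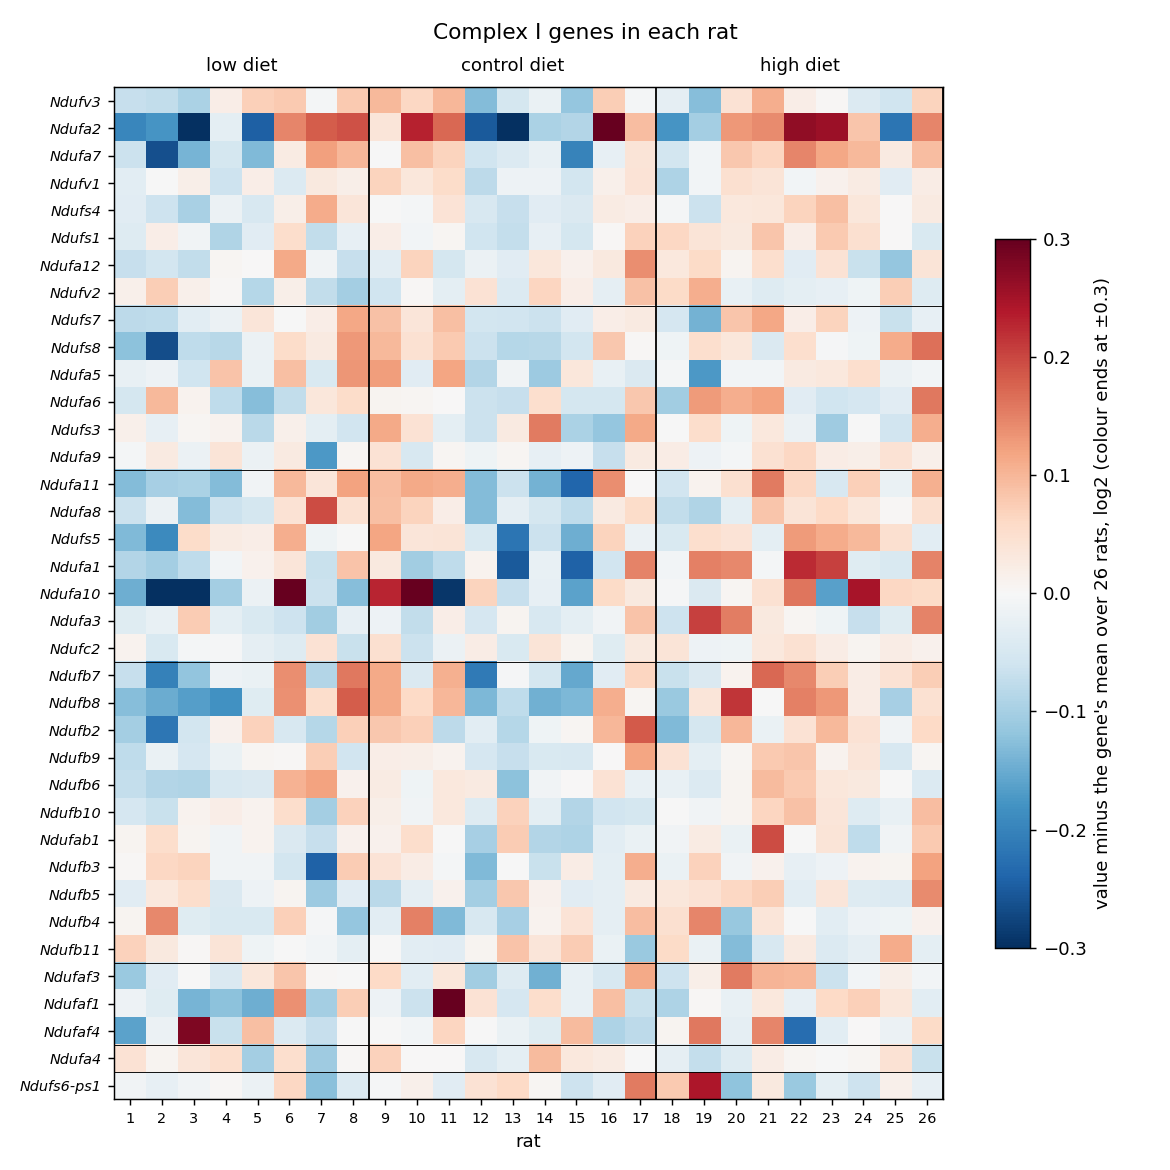
Value minus the gene's mean over 26 rats, in log2, for each complex I gene (rows, by module from electron input at the top) and rat (columns, by diet); colours end at ±0.3. Whole columns such as low rat 6 and control rat 9 are high over many genes, and low rats 1 to 5 and control rats 12 to 15 are low.

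After diet means were removed, the complex I genes were compared with each other across rats. The median Pearson correlation over 666 pairs of the 37 genes was 0.15, against 0.041 over all pairs of tested genes, and 14.0% of pairs exceeded 0.5, against 3.46%. These are descriptions over 26 rats, most of them with a measured cage mate, and all genes of a rat were read from the same array. The genes closest to the mean of the others were Ndufa11 (r = 0.81), Ndufb7 (0.81), Ndufv3 (0.78) and Ndufb8 (0.76), and 17 of 37 had r above 0.5. Ndufb11 (-0.65), Ndufv2 (-0.43), Ndufaf4 (-0.19) and Ndufc2 (-0.18) were lowest, among 6 genes with r below 0. Of the 4 genes with the smallest p between high and low, Ndufa7 (0.67) and Ndufa1 (0.53) followed the other genes across rats, Ndufs1 less so (0.44) and Ndufa3 hardly (0.098).

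Most genes of the other respiratory complexes also had higher means on high. Between high and low, 3 of 4 tested genes of complex II were higher (median +0.014), 6 of 7 of complex III (+0.037), 9 of 10 of complex IV (+0.024) and 12 of 13 of the ATP synthase (+0.031). Sdha, the flavoprotein of complex II, differed by +0.063 and Uqcrc1 of complex III by +0.064. Cox4i1 of complex IV and Atp5f1a, the alpha subunit of the ATP synthase, differed by +0.069 and +0.070, with unadjusted p values of 0.012 and 0.011. Outside the chain, 11 of 13 genes of the matrix and outer membrane were higher (+0.025), among them Cs, the citrate synthase, at +0.054, and Hspa9, the matrix chaperone, at +0.050. Of the regulators of mitochondrial biogenesis, 7 of 9 were higher (+0.018), with Yy1 at +0.053 and Nrf1 lower at -0.049. None of these passed the adjusted test, and the differences between complex I and the other lists were not tested.

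The same comparisons were made for markers of cell types and of a neighbouring region, of which none passed the adjusted test. These lists were chosen with earlier results of these data known, so their counts only describe them. Of 9 tested endothelial and mural markers, 0 had a higher mean in high than in low rats (median -0.072, with Rgs5 -0.13 and Flt1 -0.10). At an unadjusted p under 0.05, 4 were lower, against 2.72% of all genes. Against control rats 0 of 9 were higher, with a median of -0.094. Their mean level ranged between 8.33 and 8.47 in low rats, 8.35 and 8.46 in control rats and 8.28 and 8.39 in high rats, and Kdr lay below the filter. All 4 tested markers of the neighbouring cortex had higher means in high than in low rats (median +0.11, with Fezf2 +0.18 and Etv1 +0.096). All 4 had an unadjusted p under 0.05, against 4.5% of all genes higher at that level. Against control rats 4 of 4 were higher, with a median of +0.12. Their mean level ranged between 10.46 and 10.62 in low rats, 10.42 and 10.65 in control rats and 10.44 and 10.75 in high rats. Of general neuronal markers 6 of 8 were higher (+0.026; Stmn2 +0.064, Syt1 +0.029), and of inhibitory neuron markers 4 of 5 (+0.074; Gad1 +0.074, Slc32a1 +0.087). Excitatory neuron markers had 2 of 4 higher (Camk2a -0.041, Neurod6 -0.014), astrocytes 4 of 7 (Gja1 -0.032, Aldh1l1 +0.042), oligodendrocytes 4 of 6 (Cnp +0.089, Cldn11 +0.039) and microglia 1 of 4 (Cx3cr1 -0.032, Csf1r -0.026). Ttr, the only tested marker of choroid plexus, differed by -0.28 with an SE of 0.68. The part of tissue make-up in the complex I differences was not tested.

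**Figure D4:**
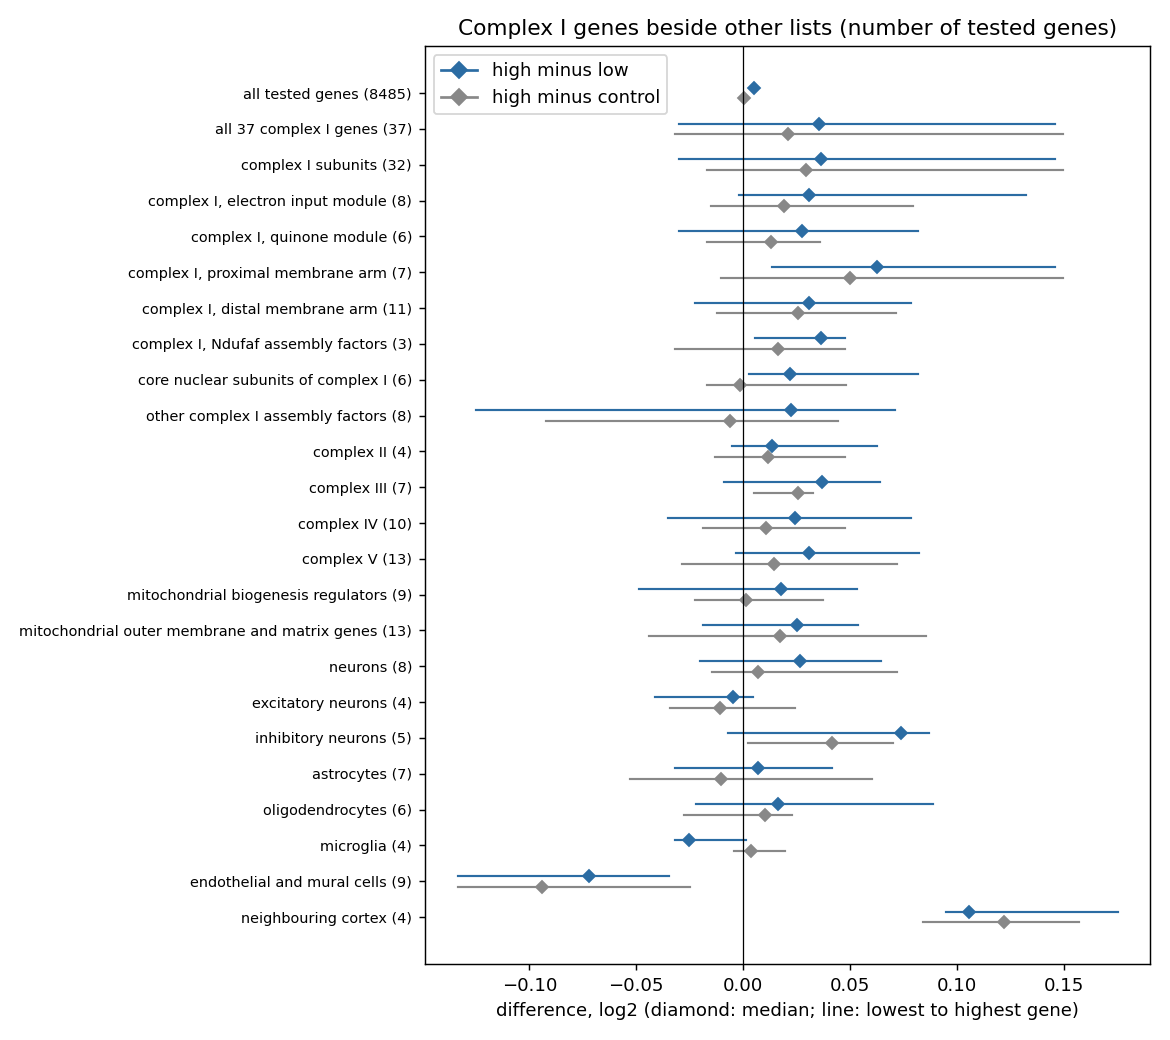
Differences in log2 of high minus low (blue) and high minus control (grey) for lists of genes, as the median (diamond) and the lowest to highest gene (line), with the number of tested genes in brackets; for all tested genes the median alone is shown. The medians of the 37 genes and of each module lie right of 0, that of the core subunits only in high minus low, next to those of complexes III, IV and V, with endothelial and mural markers to the left and neighbouring cortex farthest to the right.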

How the data were processed

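The authors deposited log2 probe set values of 26 Rat Gene ST arrays (29214 probe sets, 0 missing). The submitters' processing notes list GCRMA and Partek 6.6 without saying what each did. A gene was read from its brightest probe set with 1 symbol and tested if its mean reached 6.94, the median of all probe sets. The 3 diets were fitted as a factor with limma 3.58.1 in R 4.3.3 without further normalization, p values being 2-sided and adjusted by Benjamini-Hochberg over 8485 genes. Calls were made below 0.17, the stricter of the false discovery rates in the series design. The procedure was run on simulated data with independent noise for each gene and rat and no cages. That run required detection only of shifts larger than any complex I difference here. In each contrast and the F-test the 8 complex I genes of smallest unadjusted p were named, with the 3 brightest and 3 dimmest, core subunits, assembly factors, genes whose probe sets differed in sign, and 2 genes of each other list. Genes and lists were chosen with earlier results of these data known. Alternatives covered filters, scaling, probe sets, cages, array weights, outlying values and single arrays. The number of arrays limits the precision.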

Additional observations from a re-analysis of the deposited data

Results flagged for a closer look

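In 9 of the 111 groups of 8 or 9 rats (each of 37 genes on each of 3 diets), 1 rat stood apart from the rest of its group by Dixon's criterion, which chance meets in about 1 group of 20. On the low diet, rat 6 was highest in Ndufa12 (10.979), rat 3 was highest in Ndufa3 (11.9323), and rat 7 was lowest in both Ndufa9 (10.7307) and Ndufb3 (9.46923). On the control diet, rat 11 was highest in the assembly factor Ndufaf1 (8.28531), rat 13 was lowest in Ndufb6 (12.6756), and rat 17 was highest in Ndufb9 (12.3127). On the high diet, rat 19 was lowest in Ndufa5 (10.2578) and rat 22 was lowest in the assembly factor Ndufaf4 (8.27061). Control rat 17, low rat 7 and high rat 19 were also the 3 arrays with the lowest quality weights.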

How the results depend on the processing

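No paired analysis was possible because every rat has a subject number of its own, and nothing in the labels ties rats of different diets that carry the same cage number. With each cage within a diet as a random block, 0 genes were called in each comparison. The estimated correlation within these cages was 0.136. Complex I genes at an unadjusted p under 0.05 numbered 3 for high minus low, 1 for high minus control and 0 for low minus control. In each comparison, fewer genes of the whole array stood at that level than in the main fit. A block of cage number across diets was added after seeing the data. Its estimated correlation was -0.054, and it also gave 0 called genes in each comparison. Complex I genes at that level then numbered 4, 2 and 0 in the same order. The 24 differences named by smallest p kept their sign in all 953 alternatives, and 0 became called. They were picked from these same values for their small p. Several alternatives, such as the test without moderation, cannot change a difference, and leaving out a control rat cannot change high minus low. The kept signs are therefore no independent support. Between high and low, genes called over the whole array numbered 1 after quantile normalization, centring on array medians or with the tail mark as a covariate, 30 with values over 2 SD removed, 5 without the 3 arrays of lowest weight (chosen after seeing the data) and 2 at a threshold of 0.31 with or without moderation; none was a complex I gene. Leaving out single rats gave 0 to 3. Complex I genes at an unadjusted p under 0.05 numbered 8 with array weights and 1 to 6 without single rats. Between high and control, genes called numbered 15 with values over 2 SD removed and 1 without the 3 arrays, and 0 to 1 without single rats. Complex I genes under 0.05 numbered 1 with no filter, the stricter filter, quantile normalization or the cage block, 5 with centring, 4 with weights, 6 without the 3 arrays, and 1 to 3 without single rats. Of all genes, 416 stood at that level after quantile normalization and 515 after centring, against 393 in the main fit. The counts over all genes in the other settings of this comparison are not given here. Between low and control, complex I genes under 0.05 numbered 1 with weights or values over 2 SD removed, and 0 to 2 without single rats. Without single rats, 7 to 16 of the 37 had a higher mean on low. The F-test called 17 genes with values over 2 SD removed, 1 without the 3 arrays and 0 to 3 without single rats. The causes were not tested. The median difference of complex I lay between +0.030 and +0.042 for high minus low. For high minus control it lay between +0.015 and +0.035, and for low minus control between -0.018 and -0.0038. Of genes at an unadjusted p under 0.05, 62.3% were higher on high than on low, and 77.7% after centring; against control the shares were 47.1%, and 79.6% after centring. For low against control, 29.0% were higher, and 41.9% after quantile normalization and 49.7% after centring.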
